A study of Homo sapiens with 18 samples.

Results

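Class I antigen presentation genes and the non-coding RNA gene HCP5 were followed across 18 gene-level microarrays of LNCaP and VCaP, human prostate cancer cell lines that respond to androgen. The genes were chosen by name, as transcript clusters (sets of probes for 1 transcribed locus) whose platform annotation is or includes PSMB8, PSMB9, TAP1, TAP2, TAPBP, B2M, NLRC5, HLA-E, HLA-F or HCP5. Of these 10 genes, 9 were found, in 21 of 21214 named clusters, and HLA-E is not analysed here. The clusters of PSMB8, PSMB9 and TAP1 came as 3 copies with identical values and counted once, which left 15 distinct clusters of 20811. TAP2, TAPBP and HLA-F had 3 differing clusters each, of which the brightest is reported, and the others followed it with a correlation of 0.95 to 1.00 over the arrays. All HLA-F clusters also carry the symbol HLA-B, so their signal cannot be assigned to HLA-F alone.

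Cells were transfected with siRNA against CTBP1-AS, a transcript antisense to the corepressor gene CTBP1 (siCTBP1-AS), with siRNA against the SFPQ product PSF, a splicing factor that binds RNA (siPSF), or with control siRNA (siControl). Each transfection was followed, 48 h later, by the synthetic androgen R1881 or vehicle, in cells kept for 3 days in charcoal-treated serum at 5% for VCaP and 2.5% for LNCaP. The arrays formed 4 sets with their own siControl arrays and 1 array for each siRNA and treatment. The VCaP set held siCTBP1-AS, siPSF and siControl at 1 nM R1881, LNCaP set 2 held siCTBP1-AS and siControl at 1 nM, set 1 held siCTBP1-AS and siControl at 10 nM, and set 3 held siPSF and siControl at 10 nM. The siCTBP1-AS siRNA of VCaP and of set 2 carries a number mark in the labels that set 1 does not have. What the mark means and how long the hormone was given are not stated in the sources used here. Each line is a long-established cell line, and the labels do not tell whether the samples were separate cultures. The p-values therefore cover the spread between these samples only, which may be technical.

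Class I molecules show peptides from inside the cell to CD8 T cells. Peptides are cut by the proteasome, in which the interferon-inducible subunits PSMB8 and PSMB9 can replace constitutive ones, and the TAP1-TAP2 transporter carries them into the endoplasmic reticulum. There tapasin, the product of TAPBP, helps load them onto a heavy chain such as HLA-F that is paired with beta-2-microglobulin, the product of B2M. NLRC5 is the transactivator of class I genes, and HCP5 is a long non-coding RNA gene that lies among the class I genes and shares sequence with them. Interferons raise most of these genes, and tumours of the prostate are known for low class I presentation.

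In the RefSeq annotation HLA-F, HCP5, TAP2, PSMB8, TAP1, PSMB9 and TAPBP follow each other in this order on chromosome 6, whereas B2M lies on chromosome 15 and NLRC5 on chromosome 16. RefSeq promoter windows of GRCh38.p14 were at hand for 8 of the 10 genes. The 250 bases before the start site are shown for PSMB9, TAP1, B2M, HLA-F and HCP5, written 5′ to 3′ along each gene's own strand. The windows of PSMB8, TAP2 and TAPBP were searched as well but are not shown. Capitals mark every match, on either strand, to the interferon-stimulated element (GAAA, any 2 bases, GAAA) or the CCAAT box (CCAAT). Overlapping matches run together as 1 stretch of capitals.
PSMB9, chr6:32853942-32854191, plus strand: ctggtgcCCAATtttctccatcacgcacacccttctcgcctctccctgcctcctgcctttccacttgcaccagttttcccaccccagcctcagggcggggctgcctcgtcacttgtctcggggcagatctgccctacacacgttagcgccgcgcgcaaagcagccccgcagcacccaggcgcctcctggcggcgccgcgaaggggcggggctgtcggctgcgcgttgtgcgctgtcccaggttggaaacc
TAP1, chr6:32853705-32853954, minus strand: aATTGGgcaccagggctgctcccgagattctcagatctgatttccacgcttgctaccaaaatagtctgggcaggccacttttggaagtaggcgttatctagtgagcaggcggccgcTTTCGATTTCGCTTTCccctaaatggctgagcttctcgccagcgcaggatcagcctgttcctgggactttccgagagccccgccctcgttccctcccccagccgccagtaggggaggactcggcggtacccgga
B2M, chr15:44711267-44711516, plus strand: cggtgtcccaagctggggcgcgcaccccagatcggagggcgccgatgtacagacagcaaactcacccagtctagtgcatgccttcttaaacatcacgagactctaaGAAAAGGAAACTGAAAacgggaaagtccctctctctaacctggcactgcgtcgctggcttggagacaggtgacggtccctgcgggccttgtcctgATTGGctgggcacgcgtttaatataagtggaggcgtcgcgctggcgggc
HLA-F, chr6:29723184-29723433, plus strand: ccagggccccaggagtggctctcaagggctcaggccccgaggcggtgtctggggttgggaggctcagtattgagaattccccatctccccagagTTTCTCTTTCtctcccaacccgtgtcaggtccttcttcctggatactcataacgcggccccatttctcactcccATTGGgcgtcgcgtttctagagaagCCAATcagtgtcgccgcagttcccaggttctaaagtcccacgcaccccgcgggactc
HCP5, chr6:31462930-31463179, plus strand: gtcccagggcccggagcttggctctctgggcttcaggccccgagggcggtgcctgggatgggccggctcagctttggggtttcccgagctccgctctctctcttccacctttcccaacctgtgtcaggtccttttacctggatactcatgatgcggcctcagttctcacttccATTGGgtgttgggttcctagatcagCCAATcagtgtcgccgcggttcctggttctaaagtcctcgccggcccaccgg

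The interferon-stimulated element occurred in 5 of the 8 promoters with an entry (TAP1, TAP2, TAPBP, B2M and HLA-F, at the first start site of each), against 3.02% of 35097 RefSeq windows of the same length. The TAP1, TAPBP and B2M promoters each held 2 overlapping copies. These lay 134 to 119 bases before the start of TAP1, 20 to 5 before that of TAPBP and 144 to 129 before that of B2M. CCAAT occurred in 5 of 8 (PSMB9, TAP1, B2M, HLA-F and HCP5), against 32.0% of all windows. Of other motifs searched, TTCNNNGAA occurred in 0 of 8 at the first start site, against 6.56%, and AGAACA in 1 of 8, PSMB8, against 12.4%. TTCNNNGAA did occur at a second start site of TAP1 and of PSMB8. The shares of all windows include every start site of a gene, whereas the counts of 8 use the first only. TAP1 and PSMB9 start 488 bases apart on opposite strands, and their windows share 13 bases, in which their CCAAT match lies. HLA-F and HCP5 were the most alike of the 5 windows shown: without gaps and at a shift of 5 bases, 139 of 245 bases were identical (56.7%), against 33.0 to 40.4% for the other pairs. A match describes these letters only, and its part in the values below was not tested.

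Values were log2 signals after robust multi-array averaging (RMA), so a difference of 1 is a doubling. Set medians lay at 6.25 in VCaP and at 5.74, 6.7 and 6.8 in LNCaP sets 2, 1 and 3, and no level is set against that of another set or of another gene, whose probes differ. Arrays within a set correlated at 0.98 to 0.992 over clusters. Of 6 measured luminal markers, KRT8, KRT18, KLK3 and TMPRSS2 rose with R1881 in both lines, and EPCAM fell by 0.24 in LNCaP (adjusted p = 0.0122). Markers of leukocytes are given beside the siCTBP1-AS results. SFPQ, the target of siPSF, fell by 1.44 in VCaP and by 0.79 in LNCaP set 3 (adjusted p = 0.000917 and 0.0251), and CTBP1-AS itself is not analysed here. PSMB8 lay among the 25% of clusters with the lowest mean signal, which were left out of the tests, so 8 of the 9 measured genes were tested among 15608 clusters. The number of arrays limits the precision of every value.

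**Figure D1:**
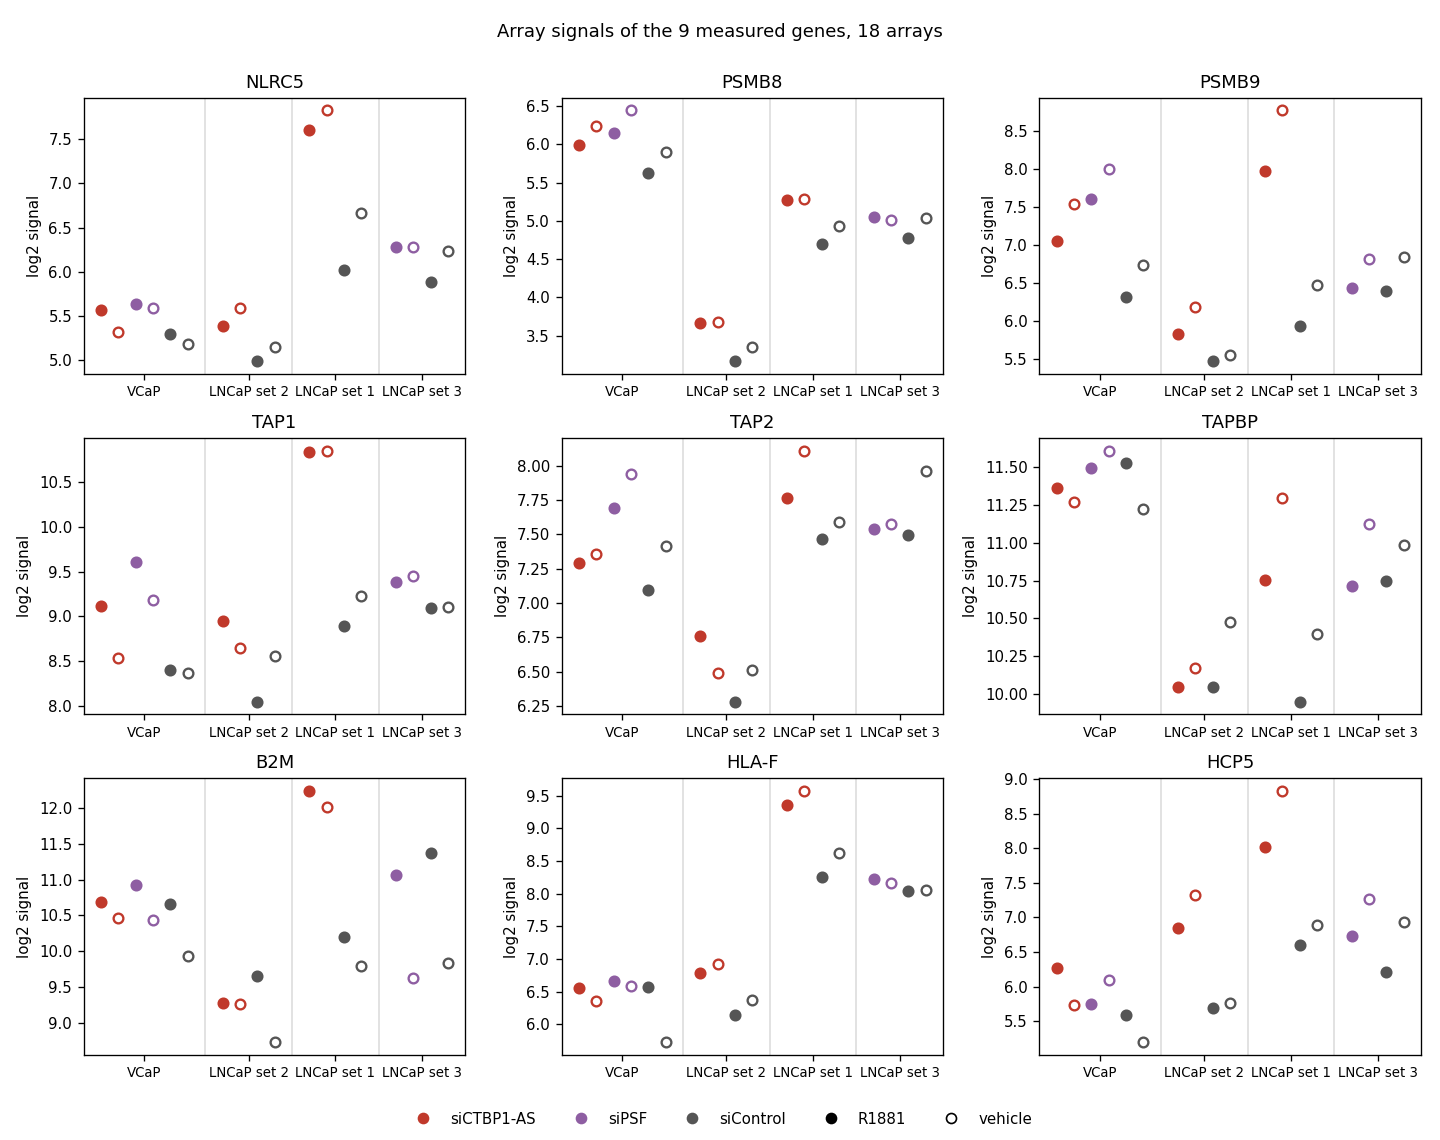
Log2 array signal (vertical axes) of the 9 measured genes on 18 arrays, grouped along the horizontal axis by array set and ordered siCTBP1-AS, siPSF, siControl, with R1881 (filled) left of vehicle (open). The red siCTBP1-AS points of LNCaP set 1 stand above the grey siControl points of that set in all 9 panels. In set 2 they stand above them for HCP5, HLA-F, PSMB9, PSMB8, NLRC5 and TAP1, the last by only 0.09 between the vehicle arrays. They overlap or interleave there for B2M, TAP2 and TAPBP. The share of all clusters whose points separate in this way was not computed.

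The first question was whether knockdown of CTBP1-AS changed these genes in LNCaP. Over both LNCaP sets that held it, HCP5 rose by 1.51 (SE 0.13, adjusted p = 0.00724) and the HLA-F cluster by 0.81 (SE 0.12, adjusted p = 0.028), each higher in 4 of 4 differences within a set. They were the 2 of 8 tested genes that passed, both higher, against 0.846% of all clusters in either direction and 0.551% higher. All 8 changes were positive and 7 had an unadjusted p under 0.05, as had 2771 of 15608 clusters. Their median was 1.00, next to -0.01 over all clusters. The other changes were 1.34 for PSMB9 (adjusted p = 0.115), 1.14 for TAP1 (0.0991), 1.11 for B2M (0.222), 0.90 for NLRC5 (0.0967), 0.35 for TAPBP and 0.32 for TAP2. HLA-F rested on the arrays used: without set 3 its change of 0.81 had an adjusted p of 0.0549, and without set 2 its change of 1.02 had an adjusted p of 0.0725. Without set 2, PSMB9 at 2.18, TAP1 at 1.79 and NLRC5 at 1.37 passed as well. That fit holds siCTBP1-AS in set 1 only, so its p-values do not cover the spread of a knockdown effect between sets.

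Differences of several of these genes were larger in set 1 than in set 2, so each set was also fitted with a term of its own, a choice made after the values had been seen. In set 2, HCP5, HLA-F, PSMB9 and TAP1 rose, 4 of 8 against 19.2% of all clusters in either direction and 8.58% higher, with a median change of 0.46 over the 8 genes. In set 1, 7 of 8 genes rose, all but TAP2, against 2.93% of all clusters in either direction and 1.83% higher, and the median was 1.52. The effect in set 2 was lower than in set 1 for 5 of 8 genes, against 8.92% of all clusters in either direction and 5.02% lower: the difference, set 2 minus set 1, was -2.05 for B2M, -1.68 for PSMB9, -1.29 for TAP1, -1.0 for TAPBP and -0.95 for NLRC5. For HCP5 the difference was -0.32 (95% interval -0.93 to 0.30), for HLA-F -0.41 (-0.96 to 0.13) and for TAP2 -0.18 (-0.65 to 0.28). The sets differ in the mark on the siRNA, the R1881 dose and the array set itself, which cannot be told apart. Each set held 1 siCTBP1-AS array per treatment. The spread in this fit comes only from how R1881-minus-vehicle differences vary between pairs of arrays, not from repeated transfections. It holds no spread of a knockdown effect between sets, so the p-values and intervals by set do not cover that spread.

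NLRC5, the class I transactivator, had signals in set 2 of 5.39 with R1881 and 5.60 with vehicle after siCTBP1-AS, against 4.99 and 5.15 after siControl. In set 1 the signals were 7.60 and 7.83 after siCTBP1-AS, against 6.02 and 6.67 after siControl. The knockdown arrays lay above their siControl arrays in both sets without overlap. Statements on overlap, here and below, describe single genes, and the share of all clusters without overlap was not computed. The fitted change was 0.42 in set 2 (adjusted p = 0.0552) and 1.37 in set 1 (SE 0.13, adjusted p = 0.000598).

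PSMB9, the inducible counterpart of the constitutive beta1 subunit, had signals in set 2 of 5.84 with R1881 and 6.19 with vehicle after siCTBP1-AS, against 5.47 and 5.55 after siControl. In set 1 it had 7.98 and 8.78 after siCTBP1-AS, against 5.93 and 6.47 after siControl. That is 1.55-fold with vehicle in set 2 and 4.95-fold with vehicle in set 1, and the groups did not overlap in either set. The fitted change was 0.50 in set 2 (adjusted p = 0.0354) and 2.18 in set 1 (SE 0.14, adjusted p = 9.19e-05). PSMB8, the inducible counterpart of beta5, was dim: in set 2 it had 3.66 with R1881 and 3.68 with vehicle after siCTBP1-AS, against 3.17 and 3.35 after siControl. The set 1 signals were 5.27 and 5.29 after siCTBP1-AS, against 4.70 and 4.93 after siControl. With no filter on low signals PSMB8 changed by 0.42 in set 2 (adjusted p = 0.0217) and by 0.47 in set 1 (adjusted p = 0.0423), and its set 2 minus set 1 difference was -0.05 (adjusted p = 0.892).

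TAP1, a subunit of the peptide transporter, had signals in set 2 of 8.95 with R1881 and 8.65 with vehicle after siCTBP1-AS, against 8.05 and 8.56 after siControl. The TAP1 signals of set 1 were 10.84 and 10.86 after siCTBP1-AS, against 8.89 and 9.23 after siControl. The set 2 difference was 0.90 with R1881 but 0.09 with vehicle, whereas set 1 gave 1.95 and 1.62. The fitted change was 0.50 in set 2 (adjusted p = 0.0285) and 1.79 in set 1 (SE 0.13, adjusted p = 0.00018). TAP2, the partner subunit, had 6.76 with R1881 and 6.49 with vehicle after siCTBP1-AS in set 2, against 6.28 and 6.51 after siControl. In set 1, TAP2 had 7.76 and 8.11 after siCTBP1-AS, against 7.47 and 7.59 after siControl. TAP2 groups overlapped in set 2 and not in set 1, and neither change passed (0.23, adjusted p = 0.329, and 0.41, adjusted p = 0.198).

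TAPBP, which encodes the loading chaperone tapasin, had signals in set 2 of 10.05 with R1881 and 10.17 with vehicle after siCTBP1-AS, against 10.04 and 10.48 after siControl. Its signals in set 1 were 10.75 and 11.30 after siCTBP1-AS, against 9.95 and 10.40 after siControl. The set 2 groups overlapped (-0.15, adjusted p = 0.447), and the set 1 groups did not, with a rise of 0.85 (SE 0.13, adjusted p = 0.00734).

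B2M, the light chain shared by all class I molecules, had signals in set 2 of 9.28 with R1881 and 9.27 with vehicle after siCTBP1-AS, against 9.66 and 8.73 after siControl. In set 1, B2M had 12.24 and 12.02 after siCTBP1-AS, against 10.20 and 9.80 after siControl. The set 2 difference was negative with R1881 (-0.38) and positive with vehicle (0.54), whereas the set 1 signal was 4.11-fold with R1881 and 4.66-fold with vehicle. The fitted change was 0.08 in set 2 (95% interval -0.47 to 0.64) and 2.13 in set 1 (SE 0.25, adjusted p = 0.00186). The HLA-F cluster, which reads a nonclassical heavy chain and HLA-B, had 6.79 with R1881 and 6.93 with vehicle after siCTBP1-AS in set 2, against 6.14 and 6.37 after siControl. In set 1 this cluster had 9.35 and 9.57 after siCTBP1-AS, against 8.26 and 8.63 after siControl. The groups did not overlap in either set, and the change was 0.61 in set 2 (adjusted p = 0.0371) and 1.02 in set 1 (adjusted p = 0.0142).

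HCP5, the non-coding RNA gene, had signals in set 2 of 6.85 with R1881 and 7.32 with vehicle after siCTBP1-AS, against 5.70 and 5.77 after siControl. In set 1, HCP5 had 8.02 and 8.83 after siCTBP1-AS, against 6.61 and 6.89 after siControl. Each knockdown array exceeded both siControl arrays of its set by more than 1. The change was 1.35 in set 2 (SE 0.19, adjusted p = 0.00196) and 1.67 in set 1 (SE 0.19, adjusted p = 0.00182). HCP5 had the highest change of the 8 genes in set 2 and the fourth highest in set 1, after PSMB9, B2M and TAP1.

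**Figure D2:**
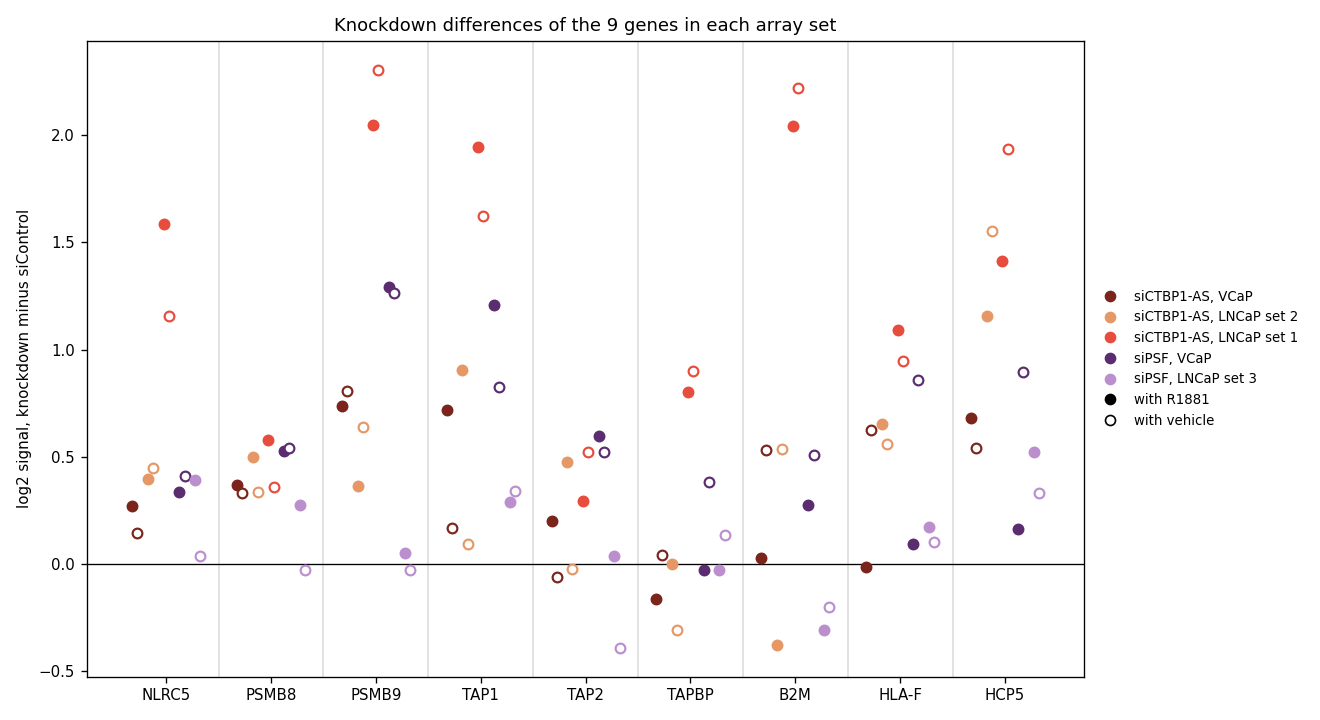
Difference in log2 signal (vertical axis) between each knockdown array and the siControl array of the same set and treatment, for the 9 genes along the horizontal axis, with R1881 (filled) or vehicle (open). The LNCaP set 1 points of PSMB9 (2.05 and 2.31) and B2M (2.04 and 2.22) are the highest, and HCP5 is above 1 in both LNCaP sets with siCTBP1-AS.

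Other genes of the pathway are read against 19.2% of clusters called in set 2 (8.58% higher) and 2.93% in set 1 (1.83% higher), so that 1 call in a short list of set 2 is near that background. Of the remaining heavy chains, HLA-B and HLA-C share 1 cluster, which rose by 0.60 in set 2 and 1.00 in set 1 (adjusted p = 0.04 and 0.0164). Of PSMB10 and the proteasome activator subunits PSME1 and PSME2, 1 of 3 rose in set 2 (PSME2, by 0.54) and 2 of 3 in set 1 (PSME2 by 1.04 and PSME1 by 0.65). Of 6 peptide loading and trimming genes, 1 rose in set 2 (the trimming peptidase ERAP2, by 0.62) and 3 in set 1 (ERAP2 by 1.47, ERAP1 by 1.01 and the tapasin relative TAPBPL by 0.61). ERAP1, ERAP2 and TAPBPL were lower in set 2 than in set 1. Of the constitutive catalytic subunits PSMB5, PSMB6 and PSMB7, 0 of 3 changed in either set in limma. Of 7 factors that bind class I promoters, RFX5 fell by 0.87 and RFXAP rose by 0.35 in set 2, and 0 changed in set 1, with changes of -0.31 to 0.15.

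Of 12 measured interferon receptor, kinase and factor genes, 3 rose and 1 fell in set 2, against 19.2% of clusters called, and 5 rose and 0 fell in set 1, against 2.93%. In set 2 these were IRF9, TYK2 and IFNGR1 (higher) and JAK2 (lower), and in set 1 IRF1, IRF2, IRF7, IRF9 and IFNGR2. IRF1, IRF2, IRF7 and JAK2 were lower in set 2 than in set 1, by a difference of -1.49, -0.74, -0.87 and -1.15 (4 of 12, against 8.92% of clusters). IRF1, a factor that binds interferon-stimulated elements, had 5.24 with R1881 and 5.76 with vehicle after siCTBP1-AS in set 2, against 5.19 and 5.82 after siControl. In set 1 IRF1 had 7.30 and 8.37 after siCTBP1-AS, against 6.06 and 6.65 after siControl. IRF1 thus rose by 1.49 in set 1 (adjusted p = 0.000695) while its change in set 2 was 0.00 (95% interval -0.33 to 0.33), a difference of -1.49 (adjusted p = 0.00597). IRF9, the DNA-binding part of an interferon-activated complex at such elements, rose in both, by 2.71 in set 2 and by 1.43 in set 1 (adjusted p = 0.00067 and 0.0357), with a difference of 1.28 that did not pass (adjusted p = 0.0918). The effect on IRF1 was thus lower in set 2 than in set 1, as were those on PSMB9, TAP1, B2M, TAPBP and NLRC5, and the part of IRF1 in this was not tested.

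Markers of other cells and of the luminal cell were read beside these values. Of 7 measured leukocyte markers 3 passed the filter, and the mean signal over the 7 was 4.79 to 4.84 after siCTBP1-AS in set 2, against 4.61 to 4.90 after siControl. In set 1 it was 6.24 to 6.55 after siCTBP1-AS, against 5.82 to 5.89 after siControl. CD68 rose by 1.63 in set 1 (adjusted p = 0.0014), and LYZ, below the filter, had 7.44 and 5.91 with siCTBP1-AS there, against 4.70 and 4.54. PTPRC, present on nearly all leukocytes, had 3.58 and 3.42 after siCTBP1-AS in set 1, against 3.62 and 3.32 after siControl. The other leukocyte markers also differed less there than CD68 and LYZ. CD14 had 6.03 and 6.02, against 5.74 and 5.90, and TYROBP 7.52 and 7.41, against 7.49 and 7.43. CD3E had 5.05 and 4.77, against 5.08 and 4.95, and ITGAM 5.57 and 5.53, against 5.62 and 5.59. Of 6 measured luminal markers 2 fell in set 2, EPCAM by 1.38 (adjusted p = 0.000102) and HOXB13 by 0.68 (adjusted p = 0.0263), and all 6 changes were negative. In set 1 none of the 6 passed in limma, with changes of -0.41 to 0.31. The part of these markers in the values above was not tested, and in bulk RNA fewer cells of a kind and less RNA per cell cannot be told apart.

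**Figure D3:**
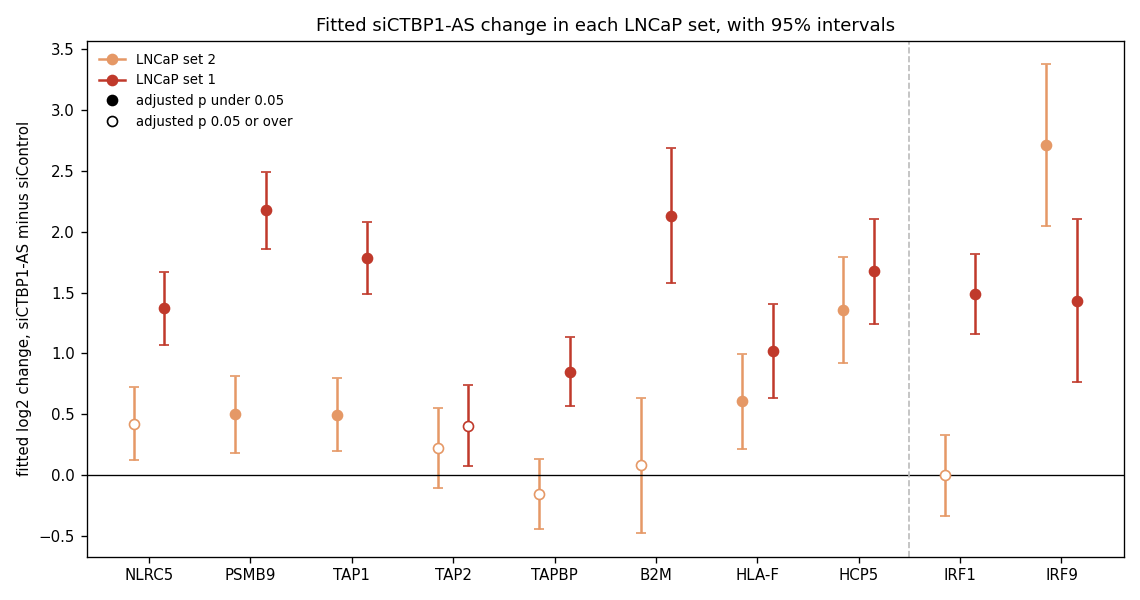
Fitted log2 change with siCTBP1-AS against siControl (vertical axis) in LNCaP set 2 (left, orange) and set 1 (right, red) for the 8 tested genes and, right of the dashed line, IRF1 and IRF9, with bars for 95% intervals and filled points at an adjusted p under 0.05. The intervals of PSMB9, TAP1, TAPBP, B2M, NLRC5 and IRF1 do not overlap between the sets, while those of HCP5, HLA-F, TAP2 and IRF9 do.

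Whether knockdown of CTBP1-AS altered the androgen response of these genes was examined with the product of siRNA and R1881 in LNCaP. Limma called 0 of 8 genes, none at an unadjusted p under 0.05, and 0% of all clusters, of which 312 had an unadjusted p under 0.05. The estimate furthest from 0 was that of B2M, -0.84 (95% interval -2.55 to 0.87), so a sizeable change could not be detected with these arrays.

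With siCTBP1-AS in VCaP none of the 8 genes passed in limma, against 0.0897% of all clusters (14, with 1605 at an unadjusted p under 0.05). This fit, like those of siPSF and of VCaP minus LNCaP below, holds 1 siCTBP1-AS effect for both LNCaP sets. The gap between sets 1 and 2 therefore enters its spread, and genes with a large gap were harder to call. For PSMB9 the SE was 0.40, against 0.14 for sets 1 and 2 in the fit with a term for each. Of the 8 changes 7 were positive, with a median of 0.29 next to -0.02 over all clusters. PSMB9 had 7.05 with R1881 and 7.55 with vehicle after siCTBP1-AS, against 6.32 and 6.74 after siControl, a change of 0.77 (adjusted p = 0.561). HCP5 had 6.26 and 5.74 after siCTBP1-AS, against 5.58 and 5.20, and its change of 0.61 was the only one with an unadjusted p under 0.05 (adjusted p = 0.318). TAP1 had 9.12 and 8.53 after siCTBP1-AS, against 8.40 and 8.36, and PSMB8 5.99 and 6.24, against 5.62 and 5.90. NLRC5 had 5.57 and 5.32 after siCTBP1-AS, against 5.30 and 5.18. For PSMB9, TAP1, PSMB8, NLRC5 and HCP5 each siCTBP1-AS array lay above both siControl arrays, and the share of all clusters that do so was not computed. Within treatments, 8 of 9 genes were higher with vehicle and 7 of 9 with R1881, against 41.9% and 49.1% of all clusters. Without LNCaP set 1 in the fit, PSMB9 passed with the same change (adjusted p = 0.0427). That fit no longer holds the gap between sets 1 and 2, so its p-value does not cover the spread of a knockdown effect between sets.

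The remaining class I genes of VCaP overlapped between siCTBP1-AS and siControl. TAP2 had 7.29 with R1881 and 7.35 with vehicle after siCTBP1-AS, against 7.10 and 7.41 after siControl, and TAPBP had 11.36 and 11.27, against 11.53 and 11.23. B2M had 10.69 and 10.46 after siCTBP1-AS, against 10.66 and 9.93, and the HLA-F cluster 6.56 and 6.35, against 6.58 and 5.73. The siControl vehicle array was the lowest of its 4 arrays for both B2M and HLA-F. The effect in VCaP was lower than in LNCaP for 8 of 8 genes, with a median difference of -0.63, but 0 passed the test of the difference, against 0.103% of all clusters (1850 clusters and 2 of the 8 genes had an unadjusted p under 0.05). HCP5 differed by -0.90 (95% interval -1.46 to -0.35, adjusted p = 0.237). The LNCaP effect here averages sets 1 and 2, and VCaP shares the siRNA mark and 1 nM R1881 with set 2 only. Line, mark and dose thus cannot be told apart. Beside set 2 alone, the VCaP change was higher for PSMB9 (0.77 against 0.50), B2M (0.28 against 0.08) and TAPBP (-0.06 against -0.15). It was lower for TAP1, TAP2, NLRC5, HLA-F and HCP5. Without LNCaP set 2, PSMB9 and TAP1 passed this test at -1.41 and -1.34 (adjusted p = 0.0192 and 0.0308), and without set 1, PSMB9 was at 0.27. These fits hold no spread of a knockdown effect between LNCaP sets, so their p-values do not cover it.

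Knockdown of PSF was examined over both lines, each with 1 set. None of the 8 genes passed in limma, against 2.27% of all clusters, although 8 of 8 changes were positive (median 0.30, next to 0.00 over all clusters) and 4 had an unadjusted p under 0.05, as had 2519 of 15608 clusters. TAP1 changed by 0.67 (adjusted p = 0.172), PSMB9 by 0.64 (0.299), HCP5 by 0.48 (0.126) and HLA-F by 0.31 (0.304). The gap between LNCaP sets 1 and 2 with siCTBP1-AS enters the spread of this fit too. In a fit on only the VCaP set and LNCaP set 3, which hold siPSF, TAP1 and PSMB9 passed with the same changes (adjusted p = 0.0134 and 0.00887). Leaving out set 1 or set 2 alone also let both pass, in fits that called 632 to 854 of 15608 clusters. These smaller fits hold only the spread of R1881-minus-vehicle differences between pairs of arrays. Their p-values thus do not cover the spread of a knockdown effect between sets.

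With siPSF the differences of PSMB9 were larger in VCaP than in LNCaP set 3. It had 7.61 with R1881 and 8.00 with vehicle after siPSF in VCaP, against 6.32 and 6.74 after siControl. In LNCaP set 3 it had 6.44 and 6.82 after siPSF, against 6.39 and 6.85 after siControl. The VCaP groups were 2.45-fold and 2.40-fold apart, while the set 3 groups coincided. TAP1 had 9.60 and 9.18 after siPSF in VCaP, against 8.40 and 8.36, and in set 3 9.39 and 9.45, against 9.10 and 9.11. TAP1 groups did not overlap in either line, with differences of 0.82 and 1.21 within treatments in VCaP and of 0.29 and 0.34 in set 3.

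TAP2 had 7.69 with R1881 and 7.94 with vehicle after siPSF in VCaP, against 7.10 and 7.41 after siControl. In set 3 it had 7.54 and 7.57 after siPSF, against 7.50 and 7.96. TAP2 was higher with siPSF in both VCaP differences and in 1 of 2 in set 3, and the test of VCaP minus LNCaP gave 0.74 (95% interval 0.26 to 1.21, adjusted p = 0.218). HCP5 had 5.75 and 6.10 after siPSF in VCaP, against 5.58 and 5.20, and in set 3 6.74 and 7.27, against 6.21 and 6.94. NLRC5 had 5.64 and 5.59 after siPSF in VCaP, against 5.30 and 5.18, and in set 3 6.28 and 6.28, against 5.89 and 6.24. Both genes were higher with siPSF in all 4 differences.

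The HLA-F cluster had 6.67 and 6.59 after siPSF in VCaP, against 6.58 and 5.73 after siControl, and in set 3 8.22 and 8.16, against 8.04 and 8.06. PSMB8 had 6.15 and 6.45 in VCaP, against 5.62 and 5.90, and in set 3 5.05 and 5.01, against 4.78 and 5.03. TAPBP had 11.50 and 11.61 in VCaP, against 11.53 and 11.23, and in set 3 10.72 and 11.12, against 10.75 and 10.99. In set 3 the differences of these genes stayed under 0.3. B2M had 10.93 and 10.43 after siPSF in VCaP, against 10.66 and 9.93, and in set 3 11.06 and 9.63, against 11.37 and 9.83. B2M differences with siPSF were positive in VCaP and negative in set 3. In VCaP alone 5 of 8 genes had an unadjusted p under 0.05, as had 2191 of 15608 clusters, and none passed in limma, against 1.85% of all clusters. In set 3 alone none did either, against 0.724% of all clusters (2106 clusters had an unadjusted p under 0.05, and none of the 8 genes). The test of VCaP minus LNCaP called 0 of 8, against 0.128% of all clusters (1782 clusters and 2 genes at an unadjusted p under 0.05). Without set 1 or without set 2 PSMB9 passed it (1.27, adjusted p = 0.0307 and 0.0356), in fits that called 43 to 136 clusters. The p-values of these fits do not cover the spread of a knockdown effect between sets either.

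In VCaP the 2 knockdowns share their siControl arrays, and the direct difference siCTBP1-AS minus siPSF was negative for 7 of 8 genes, at a median of -0.21. None passed in limma, against 1.02% of all clusters (1934 clusters and 1 gene at an unadjusted p under 0.05), and the gene was TAP2, at -0.49 (95% interval -0.83 to -0.15, adjusted p = 0.197). IRF9 rose by 2.26 with siPSF in VCaP (adjusted p = 0.0264), while its change with siCTBP1-AS was 1.86 (adjusted p = 0.133). The shared HLA-B and HLA-C cluster rose by 0.91 with siPSF in VCaP (adjusted p = 0.0461).

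The response to R1881 was examined in LNCaP siControl cells first. In this unpaired fit of 3 against 3 arrays none of the 8 genes passed in limma, against 0.256% of all clusters (353 clusters at an unadjusted p under 0.05, and none of the 8). B2M changed by 0.96 and the other 7 genes by -0.39 to -0.20. With the arrays paired by set, still none of the 8 passed.

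Over all siRNAs, each R1881 array was paired with the vehicle array of the same set and siRNA, which gives 3 pairs in VCaP and 6 in LNCaP, at 1 or 10 nM. Whether the pairs of a set are independent is not stated. In LNCaP 5 of 8 genes changed, 1 higher and 4 lower, against 18.5% of all clusters, 9.17% higher and 9.37% lower. B2M rose by 0.76 (SE 0.18, adjusted p = 0.0145), whereas PSMB9 fell by 0.43 (SE 0.08, adjusted p = 0.00308), HCP5 by 0.48 (SE 0.12, adjusted p = 0.015), TAPBP by 0.37 (SE 0.07, adjusted p = 0.00441) and NLRC5 by 0.26 (SE 0.08, adjusted p = 0.0344). In VCaP PSMB9 fell by 0.44 (SE 0.11, adjusted p = 0.0127), 1 of 8 genes against 28.9% of all clusters in either direction and 15.5% lower, a count near the share of all clusters. TAP1, TAP2 and the brightest HLA-F cluster did not pass in either line. In VCaP, however, the other 2 HLA-F clusters rose by 0.38 and 0.39 (adjusted p = 0.0494 and 0.0451). TAP1 passed there without LNCaP set 2 in the fit (adjusted p = 0.0439), and HLA-F and TAP1 passed after median centring.

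B2M was the only gene of the 8 with a positive fitted change in LNCaP. Its R1881 differences in LNCaP were 0.01 with siCTBP1-AS and 0.93 with siControl in set 2, 0.22 and 0.40 in set 1, and 1.43 with siPSF and 1.54 with siControl in set 3. All 6 were positive, with the set 3 pairs well above the rest, and without set 3 the mean was 0.39 and did not pass (adjusted p = 0.123). In VCaP the B2M differences were 0.23 with siCTBP1-AS, 0.50 with siPSF and 0.73 with siControl (0.49 on average, adjusted p = 0.19, and 0.0476 without LNCaP set 3 in the fit).

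PSMB9 fell in 3 of 3 VCaP pairs, by 0.40 to 0.50, and in 6 of 6 LNCaP pairs, by 0.08 to 0.80. The lines differed by -0.01 (95% interval -0.31 to 0.30). PSMB8, below the filter, was lower with R1881 in 3 of 3 VCaP pairs, at -0.30 to -0.24, and in 5 of 6 LNCaP pairs. With no filter it fell by 0.27 in VCaP (adjusted p = 0.0376).

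HCP5 fell in 6 of 6 LNCaP pairs, by 0.07 to 0.81, while its VCaP differences were 0.52 with siCTBP1-AS, -0.35 with siPSF and 0.38 with siControl. The lines differed by 0.67 (95% interval 0.22 to 1.12), which did not pass (adjusted p = 0.0581). In LNCaP HCP5 did not pass without set 1 (-0.45, adjusted p = 0.0624) or without set 3 (-0.41, adjusted p = 0.14). TAPBP fell in 6 of 6 LNCaP pairs, by 0.13 to 0.55, and ranged from -0.11 to 0.30 over the VCaP pairs. By the brightest cluster of each gene, TAPBP was the 1 of 8 genes whose R1881 response differed between VCaP and LNCaP (0.46, SE 0.12, adjusted p = 0.0365). All clusters passed at 10.9% in either direction and 4.98% higher, so this count was near the share of all clusters. TAPBP did not pass without set 1 (0.40, adjusted p = 0.117) or without set 3 (0.48, adjusted p = 0.0643). The brightest HLA-F cluster differed by 0.53 (adjusted p = 0.0581), and of its other clusters 1 passed (0.56, adjusted p = 0.0481) and 1 did not (0.55, adjusted p = 0.0507).

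NLRC5 was higher with R1881 in 3 of 3 VCaP pairs, at 0.05 to 0.24, and lower in 5 of 6 LNCaP pairs, which ranged from -0.65 to 0.01. Its LNCaP call was lost without any one of the 3 sets (adjusted p = 0.159, 0.085 and 0.0739 without sets 1, 2 and 3). The HLA-F cluster was higher in 3 of 3 VCaP pairs, at 0.08 to 0.85 (mean 0.38, adjusted p = 0.0507), and TAP1 likewise, at 0.04 to 0.59 (mean 0.35, adjusted p = 0.0931). TAP2 was lower in 3 of 3 VCaP pairs and in 5 of 6 LNCaP pairs, with fitted changes of -0.21 and -0.16 that did not pass. In LNCaP the genes that passed thus differed in direction, with B2M higher and PSMB9, HCP5, TAPBP and NLRC5 lower.

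**Figure D4:**
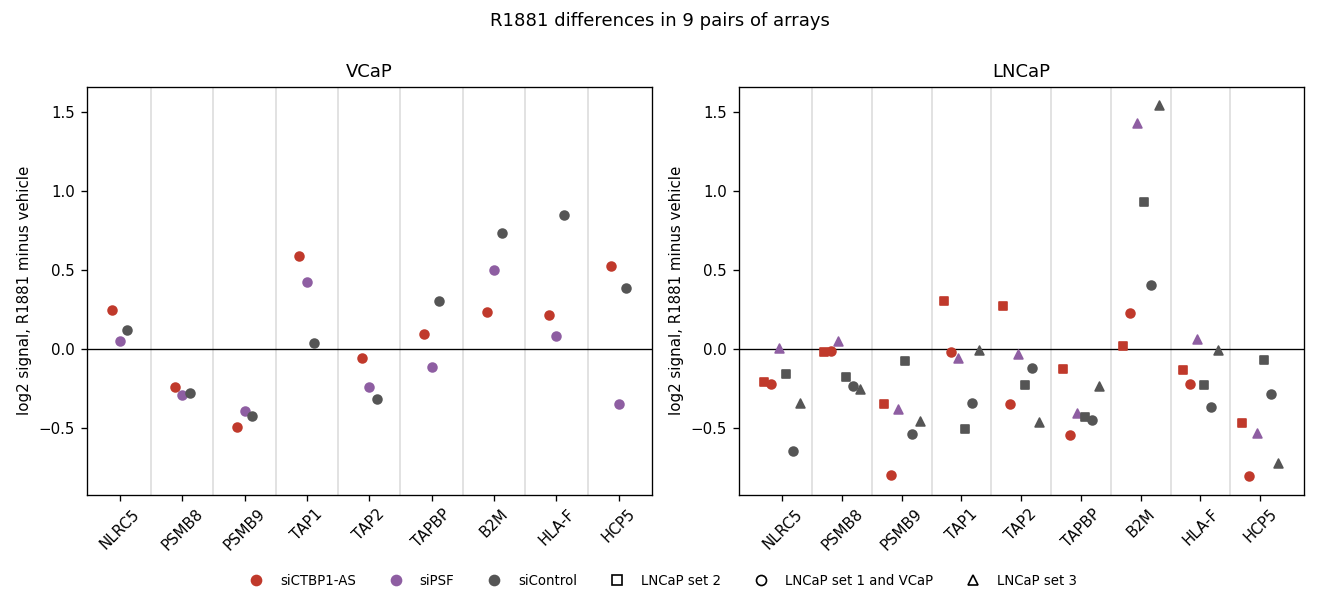
Difference in log2 signal between R1881 and vehicle (vertical axes) for the 9 genes in 3 pairs of VCaP arrays (left) and 6 pairs of LNCaP arrays (right), coloured by siRNA and with marker shapes for the LNCaP sets. PSMB9 is below 0 in every pair of both lines, B2M is above 0 in every pair, and HCP5 and TAPBP are below 0 in every LNCaP pair only.

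Counts of related genes are read against the 18.5% of clusters called in LNCaP, 28.9% in VCaP and 10.9% (4.98% higher) for the difference between the lines. In LNCaP the trimming peptidases ERAP1 and ERAP2 fell by 0.62 and 0.27 and TAPBPL by 0.24, 3 of 6 loading and trimming genes with 0 rising. PSME1 fell by 0.26, as 1 of 3 genes of its list. Of 12 interferon receptor, kinase and factor genes 1 rose and 2 fell in LNCaP, near the share of all clusters. IRF1 fell by 0.57 (adjusted p = 0.00177) and IFNGR2 by 0.19, and IFNAR1 rose by 0.21. In VCaP 1 of these 12 passed, IRF7, which rose by 0.60 (adjusted p = 0.00544). In VCaP 2 of 6 loading and trimming genes passed, a share near that of all clusters: ERAP2 fell by 0.67 and the folding enzyme PDIA3 rose by 0.37. PSME2 rose by 0.46 as 1 of 3 genes of its list, NFYB and RFXAP of the 7 promoter factors fell by 0.53 and 0.45, and the shared HLA-B and HLA-C cluster rose by 0.57 (adjusted p = 0.0132). The counts of the PSME2 list and of the promoter factors were near 28.9% as well. The stress ligand genes MICA and MICB, which lie near the class I genes, rose by 1.35 and 0.68 in VCaP, and neither passed in LNCaP. Of 10 tested class II genes, HLA-DPA1, HLA-DPB1 and HLA-DMB rose in VCaP (by 1.15, 0.83 and 0.70), while in LNCaP HLA-DMA rose by 0.78 and HLA-DPA1 and HLA-DPB1 fell by 0.47 and 0.44. The VCaP count, 3 of 10, was near the share of all clusters. HLA-DPA1 and HLA-DPB1 (2 of 10) and MICA and MICB (2 of 2) differed between the lines, by 1.62, 1.27, 1.21 and 0.68. PSME2 (1 of 3), ERAP1 (1 of 6) and the HLA-B and HLA-C cluster (1 of 1) differed between the lines, by 0.66, 0.63 and 0.73. Against 10.9% of all clusters, 1 call in a short list is near background. None of the 7 promoter factors and 12 interferon genes passed this test.

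With set means removed, the signals of the 9 genes were positively correlated over the 18 arrays in every pair, at 0.14 for TAP2 with B2M to 0.91 for TAP1 with NLRC5. NLRC5 correlated at 0.89 with PSMB9 and with HLA-F and at 0.88 with HCP5. B2M stood lowest, at 0.14 to 0.63 with the others. These values share arrays, siRNAs and R1881 treatment and are descriptions. Among 13772 other genes, those most like TAP1 were HELZ2 at 0.97, DHX58 and ZNFX1 at 0.96, and TRIM14 and DDX60L at 0.95, with 0.94 to 0.98 within each line. Those most like HCP5 were ELF3 at 0.90, NOS3 at 0.89, and AKR1C2, AKR1C1 and ZC3H12A at 0.88. Within VCaP, over 6 arrays, these 5 values were 0.36 to 0.55, against 0.92 to 0.95 within LNCaP.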

How the data were processed

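Total RNA of 12 LNCaP and 6 VCaP samples was measured on gene-level arrays. The authors deposited log2 signals per transcript cluster, which per the submitters' processing notes came from RMA in Affymetrix Expression Console 1.1.1. The sources do not tell which arrays were normalized together, and set medians differed, so set or pair was a block in every test except that of R1881 in siControl cells. Of 33297 clusters, 19460 had 1 symbol in the platform annotation, 1754 several, and 12083 were not listed there. All named clusters were tested, with 403 that repeat another's values counted once, without the 25% dimmest by their mean in each fit.

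Tests used limma 3.58.1 in R 4.3.3 (lmFit, eBayes), with Benjamini-Hochberg adjustment over 15608 clusters at 0.05, and were tested on simulated data. Knockdown fits hold the set, R1881 per line, siRNA per line and their products, and a knockdown effect is the mean over R1881 and vehicle. R1881 over siRNAs used array pairs as a block. The replicate numbers of the siControl arrays pair them, because same-numbered arrays share a set: their deviations correlated at 0.79, 0.85 and 0.70, against -0.64 to -0.08 otherwise. The members, gene lists and tests were chosen with earlier results of these data known. Genes named beyond the members come from those lists, or are the 5 with the highest correlation to TAP1 and HCP5. Of the listed genes, 8 had no cluster in the annotation and are not analysed here. Alternatives were no filter, 1 cluster per gene, median centring, trend and robust eBayes, other blocks, fits on fewer sets and leaving out each LNCaP set. Promoter sequences are from RefSeq (GRCh38.p14). The array files name no build, and no coordinates of clusters were used.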

Additional observations from a re-analysis of the deposited data

Results flagged for a closer look

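The siCTBP1-AS effect differed between LNCaP set 2 and set 1 by a test of the difference for 5 of the 8 tested genes. Set 2 minus set 1 was -2.05 for B2M, -1.68 for PSMB9, -1.29 for TAP1, -1.0 for TAPBP and -0.95 for NLRC5 (limma adjusted p = 0.0109, 0.00365, 0.00656, 0.012 and 0.0176). This comparison was chosen after the values had been seen, and siRNA mark, dose and array set change together in it. Its p-values do not cover the spread of a knockdown effect between sets.

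The R1881 response of TAPBP differed between VCaP and LNCaP by 0.46 (limma adjusted p = 0.0365), with differences of -0.11 to 0.30 in 3 VCaP pairs and of -0.55 to -0.13 in 6 LNCaP pairs. Doses differ between the sets compared. TAPBP was the 1 of 8 genes called, a count near the 10.9% of all clusters. It did not pass without LNCaP set 1 (limma adjusted p = 0.117) or without set 3 (0.0643).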

How the results depend on the processing

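With 1 array per siRNA and treatment in a set, the calls rest on few residual degrees of freedom, and signals near the floor, as for PSMB8, carry little information. All alternatives given as counts below are out of 15608 clusters or 8 genes unless the filter changes. Without a replicate block, the level differences between sets enter the spread: the LNCaP siCTBP1-AS test called 1 cluster and 0 genes, the siPSF test, the VCaP siCTBP1-AS test, both tests of VCaP minus LNCaP and that of siCTBP1-AS minus siPSF 0 clusters each, the R1881 tests 210 clusters in LNCaP, 123 in VCaP and 5 for their difference, with 0 genes in each. With the replicate block, R1881 in siControl LNCaP cells called 760 clusters, against 40 without it, and 0 of the 8 genes both ways. On only the sets that hold the knockdown, siCTBP1-AS in LNCaP called 79 clusters and 1 gene, siPSF 1154 and 2, siCTBP1-AS VCaP minus LNCaP 3 clusters, and siPSF VCaP minus LNCaP 432 clusters and 1 gene. With no filter siCTBP1-AS in VCaP called 37 clusters, R1881 in VCaP 2 genes and siPSF in VCaP 1 gene, PSMB8. With 1 cluster per gene, which leaves out HLA-F because its clusters carry a further symbol, siCTBP1-AS in LNCaP called 1 of 7 genes, HCP5. After median centring siPSF VCaP minus LNCaP called 9 clusters and R1881 in VCaP 3 genes. With trend and robust eBayes these were 10 clusters and 2 genes, and R1881 in siControl LNCaP cells called 117 clusters.

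Leaving out each LNCaP set gave 79 to 1758 clusters and 1 to 4 genes for siCTBP1-AS in LNCaP, 632 to 854 and 2 to 2 for siPSF, 2 to 115 and 0 to 1 for siCTBP1-AS in VCaP, 3 to 1364 and 0 to 2 for its VCaP minus LNCaP difference, 43 to 136 and 1 to 1 for that of siPSF, and 59 to 399 clusters for siCTBP1-AS minus siPSF. It gave 0 to 26 clusters for R1881 in siControl LNCaP cells, 1280 to 2665 clusters and 2 to 4 genes for R1881 in LNCaP, 1 to 2 genes for R1881 in VCaP, and 1094 to 1591 clusters and 0 to 1 genes for their difference. Set 3 holds the only LNCaP siPSF arrays. Without it the siPSF test over both lines and the siPSF difference between lines could not be fitted. Their ranges thus cover leaving out set 1 or set 2 only. Without set 1 or set 2, the knockdown fits hold no spread of a knockdown effect between LNCaP sets. Signs turned only for values that had not passed. For siCTBP1-AS in LNCaP TAPBP lay at -0.15 to 0.85 over the fits that left out a set, lowest without set 1. Over the same fits its R1881 product lay at -0.056 to 0.62 for TAP2, -0.20 to 0.21 for TAPBP and -0.033 to 0.12 for HLA-F, and after centring it was -0.010 for TAPBP and -0.025 for HLA-F. For siCTBP1-AS VCaP minus LNCaP, leaving out a set gave -1.41 to 0.27 for PSMB9, -0.91 to 0.092 for TAPBP and -1.85 to 0.20 for B2M, each highest without set 1, and TAP2 was 0.0086 without the replicate block. For siPSF VCaP minus LNCaP without the block, TAPBP, B2M, NLRC5, HLA-F and HCP5 were -0.31, -0.024, -0.079, -0.13 and -0.12, and siPSF in LNCaP gave PSMB9 -0.021 after centring. For R1881 VCaP minus LNCaP, leaving out a set gave -0.12 to 0.11 for PSMB9, -0.097 to 0.036 for TAP2 and -0.49 to 0.10 for B2M, and PSMB9 was 0.014 after centring. Without the siCTBP1-AS arrays of set 2, an alternative chosen after seeing the data, NLRC5 no longer passed for R1881 in LNCaP (-0.28, adjusted p = 0.0593), nor did it after centring (-0.23, adjusted p = 0.0593).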
